A study of Mus musculus with 6 samples.

Results

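The genes described here are 8 effectors of regulated cell death, Casp1, Casp4, Casp6, Casp8, Casp12, Ripk3, Mlkl and Gsdmd, taken by symbol from a liver RNA-seq table of 54777 genes. Each symbol matched 1 row, and all 8 passed the expression filter that left 16547 genes for testing (a mean of at least 0.2 FPKM, fragments scaled to gene length and library size). Livers came from 3 Wtap-HKO mice, which carry 2 floxed Wtap alleles and Alb-Cre (Alb-Cre+/-), and from 3 Wtap-flox mice (Wtapflox/flox), which carry the same floxed alleles without Cre. All mice were male, on a C57BL/6 background (C57BL/6J in the methods of the study), 8 weeks old and on normal chow. Wtap encodes a subunit of the complex that writes N6-methyladenosine on RNA. Because the albumin promoter drives Cre in hepatocytes, macrophages, endothelial and stellate cells of Wtap-HKO mice should keep their Wtap, which was not measured by cell type here. The floxed part is exon 4 alone, so the whole-gene value does not check its removal: Wtap had 5.86, 6.45 and 5.77 FPKM in Wtap-HKO livers, against 5.31, 5.94 and 5.56 FPKM in Wtap-flox livers (log2 fold change 0.10 ± 0.097 SE, limma adjusted p = 0.440).

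Caspases are cysteine proteases that cut after aspartate. Caspase 8 is the initiator caspase of death receptors such as FAS and the TNF receptor, and caspase 6 is one of the executioners that act after it. Caspase 1, and in mice the product of Casp4 (caspase 11), belong to the inflammatory branch: caspase 1 is activated by inflammasomes and caspase 11 by bacterial lipopolysaccharide in the cytosol, and both cut gasdermin D, whose freed part opens pores in the plasma membrane (pyroptosis). Necroptosis uses other enzymes. RIPK3 phosphorylates MLKL, which then disrupts the membrane, and active caspase 8 holds this route in check. All of these proteins are controlled largely by cleavage, phosphorylation and assembly, which mRNA levels do not measure. In liver, the inflammatory caspases and RIPK3 are best known from macrophages and other non-parenchymal cells.

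Casp1, Casp4 and Casp12 lie head to tail on the plus strand of chromosome 9 (GRCm38.p6), with Casp1 at chr9:5298517-5307265, Casp4 at chr9:5308828-5336783 and Casp12 at chr9:5345430-5373032. Their promoter windows, 250 bases before to 50 bases after the start, are shown because these neighbours had the 3 largest estimated fold changes of the 8 genes, none of which was called. The sequences are RefSeq's for GRCm38.p6, on the plus strand, and windows were found for 7 of the 8 genes. Capitals mark matches, on either strand, to the IRF letters AANNGAAA, the NF-kappaB letters GGGANTTCC or the STAT letters TTCNNNGAA. No matches overlapped in these windows.
Casp1, chr9:5298267-5298566: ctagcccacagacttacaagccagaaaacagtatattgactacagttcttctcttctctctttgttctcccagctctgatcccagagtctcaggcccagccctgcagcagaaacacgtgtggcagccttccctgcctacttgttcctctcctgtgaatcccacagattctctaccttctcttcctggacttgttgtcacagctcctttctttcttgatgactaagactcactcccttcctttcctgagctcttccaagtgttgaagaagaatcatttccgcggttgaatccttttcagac
Casp4, chr9:5308599-5308898: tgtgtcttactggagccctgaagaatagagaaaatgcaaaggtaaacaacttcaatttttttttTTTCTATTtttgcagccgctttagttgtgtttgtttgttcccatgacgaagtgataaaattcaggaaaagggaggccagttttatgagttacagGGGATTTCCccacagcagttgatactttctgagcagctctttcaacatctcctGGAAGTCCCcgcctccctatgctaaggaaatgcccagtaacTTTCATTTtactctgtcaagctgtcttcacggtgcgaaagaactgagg
Casp12, chr9:5345226-5345525: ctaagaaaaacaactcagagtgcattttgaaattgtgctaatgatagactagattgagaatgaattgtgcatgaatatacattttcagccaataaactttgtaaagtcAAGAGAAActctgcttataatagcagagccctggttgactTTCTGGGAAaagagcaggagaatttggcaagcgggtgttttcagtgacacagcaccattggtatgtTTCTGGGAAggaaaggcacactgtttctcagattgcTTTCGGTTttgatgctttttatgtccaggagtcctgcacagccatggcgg
In the Casp4 window shown, the NF-kappaB letters began 92 and 39 bases before the start, and 1.68% of 32851 mouse promoter windows held at least 1 such match. RefSeq gives Casp4 another window, chr9:5308610-5308909, not shown. There the NF-kappaB letters began 103 and 50 bases before the start. In the Casp12 window the STAT letters began 102 and 36 bases before the start (8.3% of windows). The IRF letters, present in 23.9% of windows, occurred 2 times each in the Casp4, Casp12 and Casp8 windows. No match was found in the windows of Casp1, Casp6, Ripk3 and Mlkl, and in none of the 7 genes was there a match to the AP-1 letters TGANTCA (7.81%) or to TATAAA (13.6%). These motifs were chosen after the expression values were known, and a match is a description of the letters only.

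To determine which of these effectors differed between genotypes, the deposited FPKM were compared with limma on log2(FPKM + 0.2), and a gene was called at a Benjamini-Hochberg adjusted p under 0.05 over all 16547 genes. Mlkl and Gsdmd were higher in Wtap-HKO livers, and no gene of the 8 was called lower. Of all genes tested, 19.5% were called higher and 20.7% lower, so 2 of 8 is close to the background share. In 4 of the 8 (Casp1, Casp4, Mlkl and Gsdmd) every Wtap-HKO library lay above every Wtap-flox library, which was also the case for 26.8% of all genes tested, while 27.4% lay entirely below. The median log2 fold change of the 8 genes was 0.66, against 0.0054 over all genes tested. Between 12 and 1418 reads stood behind each value, so the rarer transcripts were measured with larger counting error.

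**Figure D1:**
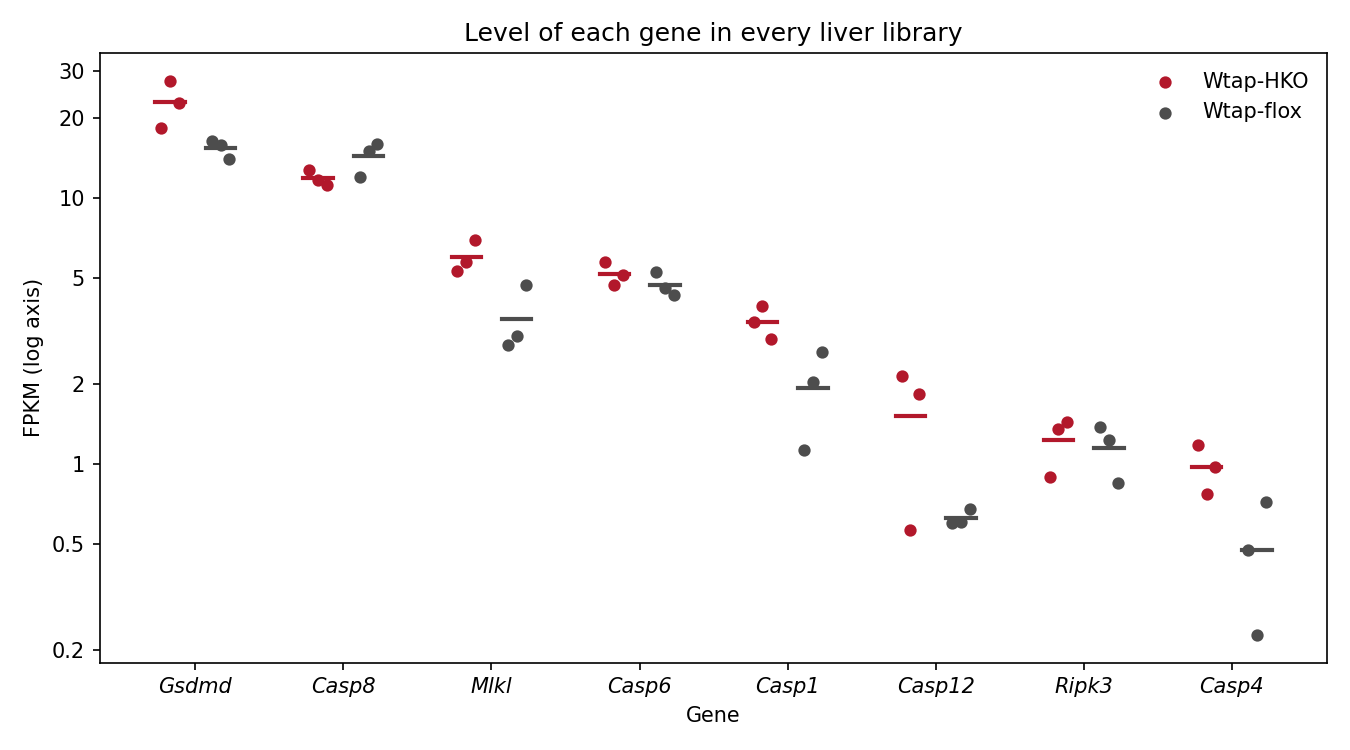
FPKM (log axis) of the 8 effector genes in every library, with Wtap-HKO (red) left of Wtap-flox (grey). Points are single mice and bars are group means (n = 3 each). Gsdmd, Mlkl, Casp1 and Casp4 show no overlap between groups, and 1 of the 3 Wtap-HKO points of Casp12 (0.567 FPKM) sits below all Wtap-flox points.

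The levels spanned 2 orders of magnitude, 0.229 to 27.6 FPKM, a scale that corrects for gene length. In Wtap-HKO livers the order of the mean FPKM was Gsdmd, Casp8, Mlkl, Casp6, Casp1, Casp12, Ripk3 and Casp4. Mlkl and Casp6 overlapped there between libraries, as did Casp12 and Ripk3, and Ripk3 and Casp4. In Wtap-flox livers the order was Gsdmd, Casp8, Casp6, Mlkl, Casp1, Ripk3, Casp12 and Casp4. Casp6 and Mlkl, Casp1 and Ripk3, and Casp12 and Casp4 overlapped there. So did Gsdmd and Casp8, at Wtap-flox means of 15.4 and 14.4 FPKM, whereas all Wtap-HKO values of Gsdmd exceeded those of Casp8, at means of 22.9 and 11.9 FPKM.

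Among the inflammatory caspases, Casp1, which matures IL-1 beta and IL-18, had 3.44, 3.93 and 2.95 FPKM in Wtap-HKO livers, against 1.13, 2.03 and 2.65 FPKM in Wtap-flox livers. The groups did not overlap, although the lowest Wtap-HKO and the highest Wtap-flox library were near each other. The log2 fold change was 0.83 ± 0.28 (SE, 95% interval 0.16 to 1.495), or 1.77-fold, and just missed the threshold (limma adjusted p = 0.0539). It passed in 6 of 16 alternative settings, among them limma-voom on the reads rebuilt from the table (adjusted p = 0.0442) and the fit without Wtap-flox replicate 3, the highest library of its group (adjusted p = 0.0279). Over all 16 the limma adjusted p reached 0.148 and the log2 fold change was as low as 0.52.

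Casp4, the intracellular lipopolysaccharide sensor, was the rarest of the 8 transcripts. It had 1.18, 0.775 and 0.974 FPKM in Wtap-HKO livers, against 0.477, 0.229 and 0.721 FPKM in Wtap-flox livers. As for Casp1, the groups were separate and Wtap-flox replicate 3 was closest to the Wtap-HKO values. The log2 fold change of 0.85 ± 0.32 (SE, 95% interval 0.10 to 1.61) was not called (limma adjusted p = 0.0695). A total of 226 reads in Wtap-HKO libraries and 72 in Wtap-flox libraries stood behind these values, and limma-voom on reads gave an adjusted p of 0.0438. Casp4 was called in 4 of 15 alternative settings, one of them without Wtap-flox replicate 3 (adjusted p = 0.0368). Over all 15 the adjusted p reached 0.179 and the log2 fold change was as low as 0.43.

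Casp12, a relative of the inflammatory caspases that resides at the endoplasmic reticulum, had 2.15, 0.567 and 1.84 FPKM in Wtap-HKO livers, against 0.602, 0.608 and 0.677 FPKM in Wtap-flox livers. Wtap-HKO replicates 1 and 3 were about 3 times the Wtap-flox level, and replicate 2 was slightly under it. The log2 fold change was 0.90 ± 0.42 (SE, 95% interval -0.09 to 1.89) and was not called (limma adjusted p = 0.127). Without Wtap-HKO replicate 2 it was 1.40 (limma adjusted p = 0.00399), so that library decides the call.
The same library stood apart in markers of other cells. The summed FPKM of 6 stellate cell markers was 49.0, 17.5 and 36.8 in Wtap-HKO livers, against 10.8, 8.63 and 10.4 in Wtap-flox livers, and that of 6 cholangiocyte markers was 262, 75.7 and 194 in Wtap-HKO livers, against 59.8, 39.7 and 63.4 in Wtap-flox livers. In both sums replicate 2 was the lowest Wtap-HKO library, yet still above every Wtap-flox library. The part of these cells in the Casp12 values was not tested.

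**Figure D2:**
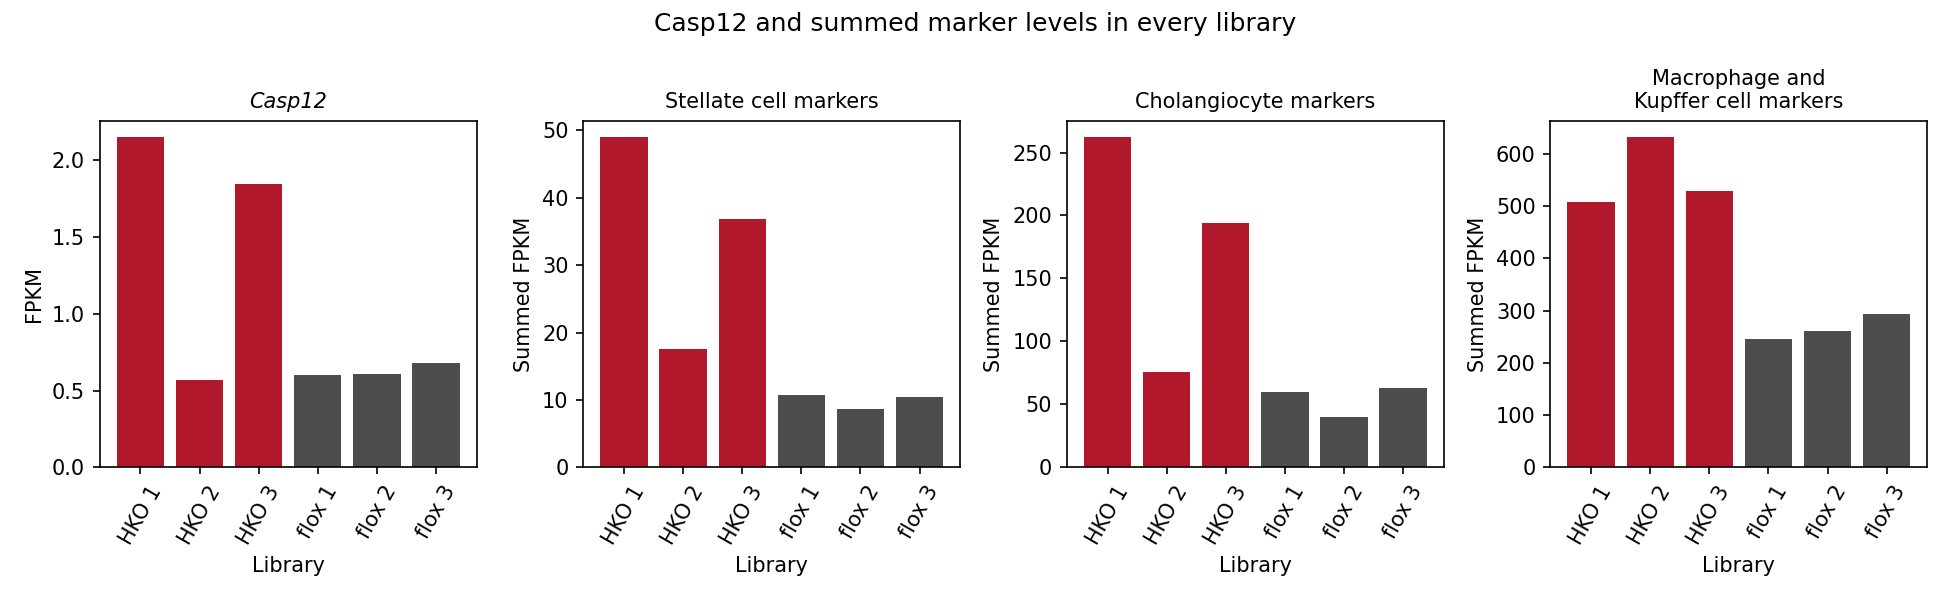
Casp12 FPKM and the summed FPKM of stellate cell, cholangiocyte, and macrophage and Kupffer cell markers in each library, Wtap-HKO in red and Wtap-flox in grey. Wtap-HKO replicate 2 is the lowest of its group in the first 3 panels (0.567, 17.5 and 75.7 FPKM). It is the highest in the macrophage sum (632 FPKM), but not for every marker in that sum. Cd5l was highest in Wtap-HKO replicate 2 (176 FPKM, against 96.6 and 113 FPKM in replicates 1 and 3). Cd14 was lowest there (14.8 FPKM, against 24.7 and 31.3 FPKM).

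For apoptosis, Casp8 had 12.8, 11.8 and 11.2 FPKM in Wtap-HKO livers, against 12.0, 15.1 and 16.0 FPKM in Wtap-flox livers. It was the only one of the 8 genes with a negative fold change on the deposited scale. Wtap-flox replicate 1 fell within the Wtap-HKO range and the other two lay above it. The log2 fold change of -0.26 ± 0.13 (SE, 95% interval -0.56 to 0.042) was not called (limma adjusted p = 0.146), but without Wtap-flox replicate 1 it was -0.38 and called lower (limma adjusted p = 0.0428). Casp8 overlaps an annotated gene on the same strand, Gm37760 (mean 0.0786 FPKM), and reads from the overlap cannot be told apart.

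On the deposited scale the partners of caspase 8 moved in opposite directions. Cflar, which encodes the inactive caspase 8 relative c-FLIP, a brake on caspase 8, had 8.03, 7.06 and 8.07 FPKM in Wtap-HKO livers, against 13.2, 12.0 and 12.4 FPKM in Wtap-flox livers (log2 fold change -0.69 ± 0.094 SE, limma adjusted p = 0.00202). Fadd, the adaptor that recruits caspase 8 to death receptors, had 3.96, 4.01 and 4.40 FPKM in Wtap-HKO livers, against 2.78, 2.52 and 2.50 FPKM in Wtap-flox livers (log2 fold change 0.63 ± 0.11 SE, limma adjusted p = 0.00443). Neither gene's groups overlapped on this scale. With all libraries set to an equal sum, Cflar was not called (log2 fold change -0.11, limma adjusted p = 0.433). Fadd was still called higher there (1.18, adjusted p = 0.000307). The ratio of Casp8 to Cflar (each FPKM + 0.2), which no scaling of libraries affects beyond that 0.2, was 1.58, 1.65 and 1.38 in Wtap-HKO livers, against 0.916, 1.25 and 1.29 in Wtap-flox livers. The ratio of Casp8 to Fadd was 3.12, 2.84 and 2.48 in Wtap-HKO livers, against 4.10, 5.61 and 6.01 in Wtap-flox livers. Both ratios separated the groups, the first higher and the second lower in Wtap-HKO, each at the smallest p that 3 against 3 libraries allow (exact two-sided permutation test, p = 0.1; adjusted p = 0.3 over 24 ratios).

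**Figure D3:**
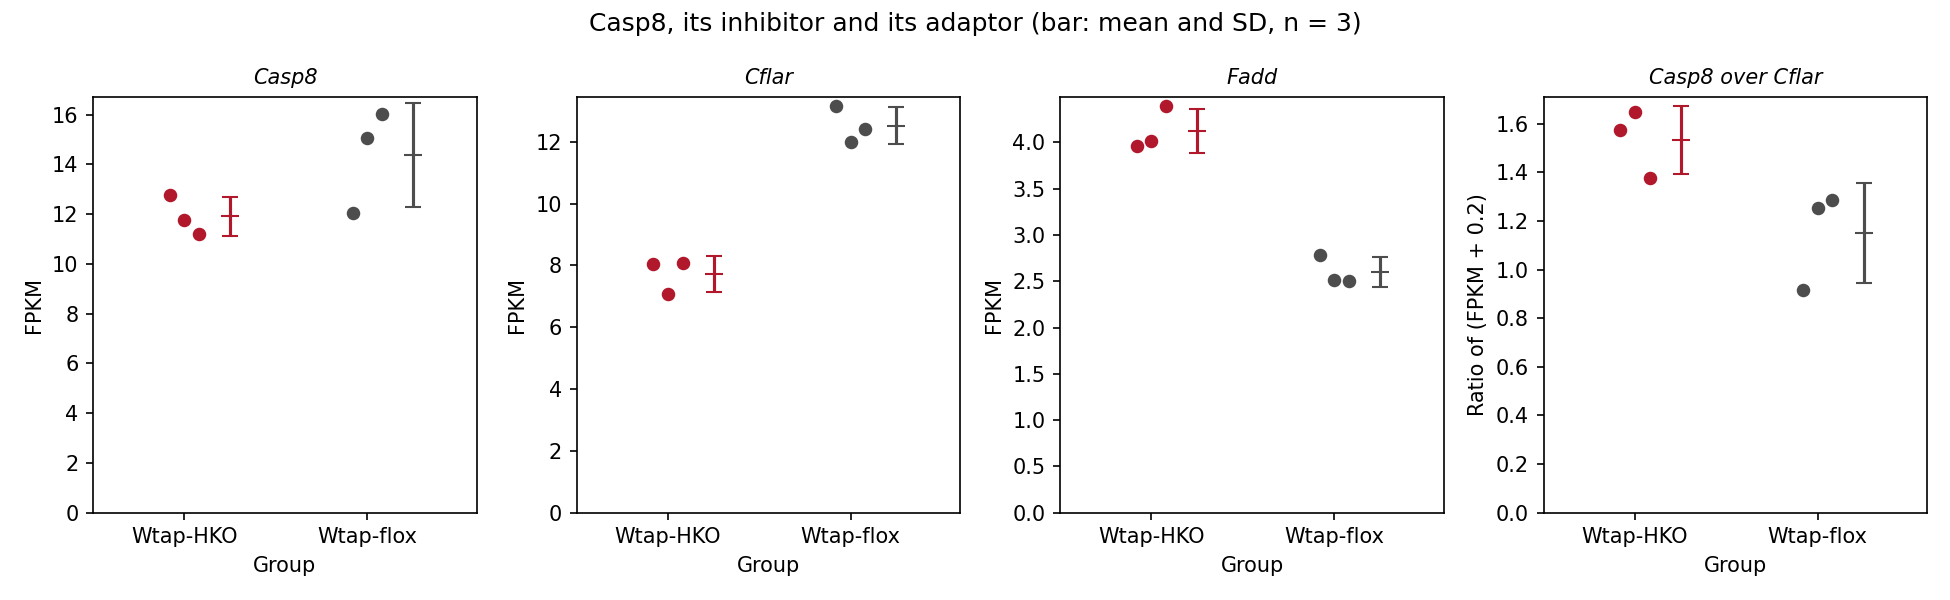
FPKM of Casp8, Cflar and Fadd and the ratio of Casp8 to Cflar, Wtap-HKO (red) left of Wtap-flox (grey). Points are mice, and the bars beside them give mean and SD (n = 3 each). On the deposited scale, Casp8 groups overlap, whereas Cflar is lower, and Fadd and the ratio are higher, in every Wtap-HKO liver.

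Casp6, which cleaves lamin A and other substrates, had 5.76, 4.73 and 5.13 FPKM in Wtap-HKO livers, against 5.30, 4.58 and 4.33 FPKM in Wtap-flox livers. The groups overlapped, and the log2 fold change was 0.13 ± 0.12 (SE, 95% interval -0.16 to 0.42, limma adjusted p = 0.422).

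Of the necroptosis pair, Mlkl was higher and Ripk3 was not called. Mlkl, the membrane-disrupting executor, had 5.34, 5.76 and 6.95 FPKM in Wtap-HKO livers, against 2.81, 3.04 and 4.71 FPKM in Wtap-flox livers, or 6.02 ± 0.838 against 3.52 ± 1.04 FPKM (SD, n = 3 each). The lowest Wtap-HKO library exceeded the highest Wtap-flox library. The log2 fold change was 0.77 ± 0.21 (SE, 95% interval 0.28 to 1.26), or 1.70-fold (limma adjusted p = 0.0248). With 2 mice in either group the call was often lost, at adjusted p values of 0.0599 and 0.0915 without Wtap-HKO replicates 2 and 3 and of 0.0817 and 0.0811 without Wtap-flox replicates 1 and 2, while the log2 fold change stayed at 0.63 or more. A pseudogene on the opposite strand, Gm45712, overlaps Mlkl with a mean of 0.186 and at most 0.969 FPKM, and whether reads were counted by strand is not given in the sources used here.

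Ripk3, the kinase upstream of MLKL, had 0.894, 1.35 and 1.45 FPKM in Wtap-HKO livers, against 1.38, 1.23 and 0.851 FPKM in Wtap-flox livers. These ranges were nearly the same, and the log2 fold change was 0.079 ± 0.24 (SE, 95% interval -0.48 to 0.64, limma adjusted p = 0.813). Ripk3 had 176 reads in Wtap-HKO and 108 in Wtap-flox libraries. The interval reaches to about 1.5-fold in either direction, and with 3 libraries a group a change within it cannot be told from none. The ratio of Mlkl to Ripk3 was 5.06, 3.83 and 4.35 in Wtap-HKO livers, against 1.91, 2.26 and 4.67 in Wtap-flox livers. Wtap-flox replicate 3 lay within the Wtap-HKO range (log2 difference 0.69, exact permutation p = 0.3, adjusted p = 0.655). Ripk1, the kinase that engages RIPK3, had 5.55, 7.29 and 7.06 FPKM in Wtap-HKO livers, against 4.70, 5.13 and 5.46 FPKM in Wtap-flox livers, and was not called (log2 fold change 0.36 ± 0.13 SE, limma adjusted p = 0.0679). It was called higher among protein-coding genes alone (adjusted p = 0.049), with limma-voom (0.0474), on the equal-sum scale (0.00121) and without Wtap-HKO replicate 1 (0.024).

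Gsdmd, the pore-forming end point of both inflammatory caspases, was the most abundant of the 8 transcripts. It had 18.4, 27.6 and 22.7 FPKM in Wtap-HKO livers, against 16.4, 15.8 and 14.0 FPKM in Wtap-flox livers, or 22.9 ± 4.63 against 15.4 ± 1.21 FPKM (SD, n = 3 each). Every Wtap-HKO library was above the Wtap-flox libraries, with replicate 1 near them and replicate 2 farthest away. The log2 fold change was 0.55 ± 0.16 (SE, 95% interval 0.18 to 0.92), or 1.47-fold (limma adjusted p = 0.0293). The call survived leaving out Wtap-HKO replicate 1, but not replicate 2 or 3 of that group (adjusted p = 0.0577 and 0.0858), nor any Wtap-flox library (adjusted p = 0.063, 0.0702 and 0.0855 for replicates 1, 2 and 3), and the log2 fold change was at least 0.41 in these fits.

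The size of every change depends on how the libraries were scaled. Rebuilt from the table, each library held 15559250 to 18510477 reads, but the size the authors divided by was 1.17 to 1.24 times this number in Wtap-HKO and 0.834 to 0.846 times in Wtap-flox libraries. A scaling between libraries is therefore already part of the deposited FPKM, which summed to 306038 to 334399 in Wtap-HKO and 465279 to 488818 in Wtap-flox libraries. When all libraries were set to an equal sum, as TPM does, the median log2 fold change of all genes tested moved to 0.52, that of the 8 effectors to 1.22, and 6 of the 8 were called higher with none lower. On that scale 48.8% of all genes tested were called higher and 6.06% lower. Wtap, not called on the deposited scale, was called higher on this one (log2 fold change 0.67, limma adjusted p = 0.00148). Casp8 changed sign (log2 fold change 0.32, limma adjusted p = 0.0967). Casp6 was called higher (0.70, adjusted p = 0.00449), as were Casp1 (1.37), Casp12 (1.38), Casp4 (1.30), Mlkl (1.33) and Gsdmd (1.13), and Ripk3 was not (0.58, adjusted p = 0.0637). Relative to the median gene, Casp6 and Ripk3 lay within 0.2 log2 units of it on both scales, Casp8 lay under it, and the other 5 lay above. With limma-voom on rebuilt reads at the authors' library sizes, 4 of the 8 were called higher (Casp1, Casp4, Mlkl and Gsdmd) and none lower, against 19.8% and 21.6% of all genes tested. Without the trend 1 of the 8 was called higher, beside 19.4% of all genes tested, and among protein-coding genes alone 4 of the 8, beside 26.3%.

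**Figure D4:**
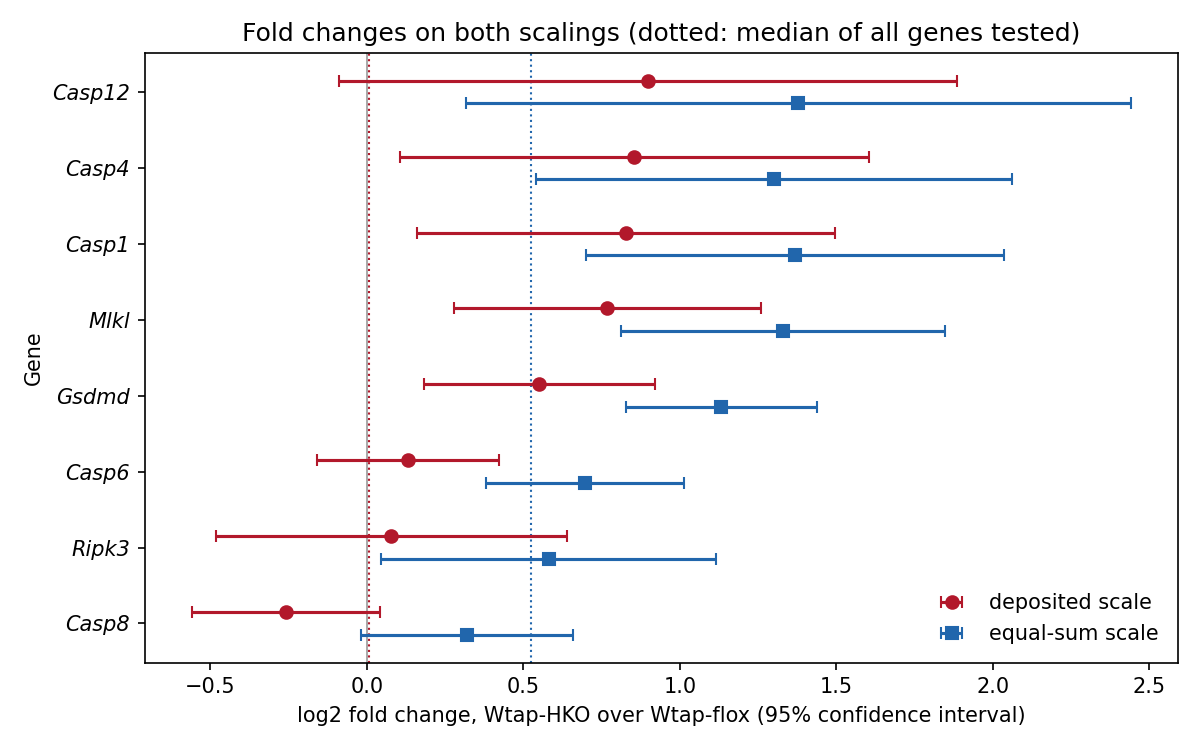
Log2 fold change, Wtap-HKO over Wtap-flox, of the 8 effector genes with 95% confidence intervals, on the deposited scale (red circles) and with all libraries set to an equal sum (blue squares). Dotted lines mark the median of all genes tested, 0.0054 and 0.52. Casp12, Casp4, Casp1, Mlkl and Gsdmd lie to the right of the median on both scales and Casp8 to the left.

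Genes around the 8 effectors were read from 7 lists, chosen with earlier results of these data known. The counts below stand beside 19.5% of all genes tested called higher and 20.7% lower, at a median log2 fold change of 0.0054. On the equal-sum scale these shares were 48.8% and 6.06%. In death receptor and RIPK1 signalling, 6 of 17 tested genes were called higher and 4 lower (median log2 fold change 0.25). The 6 were Tnfrsf10b, Tnf, Tnfsf10, Fas, Fadd and Birc3. Tnf rested on 39 reads in Wtap-HKO and 5 in Wtap-flox libraries, and its call was lost with a pseudocount of 0.05 FPKM (adjusted p = 0.0511) and in 4 of the 6 fits without a library (adjusted p of 0.0588 to 0.0885). Tnfrsf10b, the mouse receptor for the death ligand TRAIL, had 1.69, 2.47 and 2.19 FPKM in Wtap-HKO livers, against 0.0565, 0.143 and 0.0928 FPKM in Wtap-flox livers (log2 fold change 2.96 ± 0.22 SE, limma adjusted p = 0.0003). The pseudocount of 0.2 FPKM compresses this value, and limma-voom on 722 reads in Wtap-HKO and 22 in Wtap-flox libraries gave 4.41 ± 0.48 (SE). This was the largest fold change of the genes tested in the 7 lists. Tnfsf10, which encodes TRAIL itself, averaged 2.02 FPKM in Wtap-HKO and 1.06 FPKM in Wtap-flox livers (log2 fold change 0.79, adjusted p = 0.0229). Its call held without Wtap-HKO replicate 2 and was lost in each of the 5 other fits without a library (adjusted p of 0.0536 to 0.0742). Fas averaged 13.3 FPKM in Wtap-HKO and 8.14 FPKM in Wtap-flox livers (log2 fold change 0.69, adjusted p = 0.0165).
Birc3, called higher, had a log2 fold change of 0.61 (limma adjusted p = 0.0161). Whether the calls sort by the role of a gene was not tested. The genes called lower also belong to this signalling. Besides Cflar, they were Xiap, an inhibitor of executioner caspases (10.5 FPKM in Wtap-HKO and 17.2 FPKM in Wtap-flox livers), Cyld, a deubiquitinase acting on RIPK1 (1.76 FPKM in Wtap-HKO and 2.72 FPKM in Wtap-flox livers), and Map3k7, the kinase TAK1 (6.23 FPKM in Wtap-HKO and 11.0 FPKM in Wtap-flox livers). Xiap had a log2 fold change of -0.70, Cyld of -0.58 and Map3k7 of -0.79. On the equal-sum scale none of these 4 was called lower, Cflar being at -0.11 (adjusted p = 0.433), and 13 of the list were called higher. Without Wtap-HKO replicate 3 or Wtap-flox replicate 1, 3 in place of 6 genes were called higher on the deposited scale. Fas lost its call without Wtap-flox replicate 1 (adjusted p = 0.055), and Birc3 without Wtap-HKO replicate 3 or Wtap-flox replicate 2 (0.0546 and 0.0516), as did Cyld without Wtap-flox replicate 1 (0.0557).

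Necroptosis triggers and regulators had 4 of 8 genes called higher and 1 lower (median log2 fold change 0.66), beside 19.5% and 20.7% of all genes tested. Zbp1, a sensor of Z-form nucleic acids that engages RIPK3, had 8.28, 14.0 and 15.1 FPKM in Wtap-HKO livers, against 3.62, 3.07 and 4.69 FPKM in Wtap-flox livers (log2 fold change 1.64 ± 0.26 SE, limma adjusted p = 0.00317). Tlr3, the endosomal receptor for double-stranded RNA, averaged 2.83 FPKM in Wtap-HKO and 1.20 FPKM in Wtap-flox livers (log2 fold change 1.10), and its adaptor Ticam1, which can bind RIPK3, 8.92 FPKM in Wtap-HKO and 5.85 FPKM in Wtap-flox livers (log2 fold change 0.60). The Ticam1 call was lost without Wtap-HKO replicate 3 or Wtap-flox replicate 2 (adjusted p = 0.0545 and 0.0541). Itpk1, an inositol phosphate kinase whose products MLKL needs in human cells, averaged 10.4 FPKM in Wtap-HKO and 5.86 FPKM in Wtap-flox livers (log2 fold change 0.79). The gene called lower was the kinase co-chaperone Cdc37 (log2 fold change -0.41, but 0.17 on the equal-sum scale), and leaving out single libraries gave between 0 and 2 genes called lower.

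In the inflammasome list, 5 of 19 tested genes were called higher and 3 lower (median log2 fold change 0.62). Both counts are near the shares over all genes tested, 19.5% and 20.7%. Those higher were Il1a, Naip2, Naip5, Gbp2 and Gbp3. Those lower were Nlrp6, Il18 and Nek7. Nek7 had a log2 fold change of -0.41 (limma adjusted p = 0.0292), but 0.17 on the equal-sum scale. Il1a, an alarmin cytokine, averaged 2.31 FPKM in Wtap-HKO and 0.878 FPKM in Wtap-flox livers (log2 fold change 1.22, limma adjusted p = 0.00314), and Naip2, a sensor of bacterial secretion systems, 4.62 FPKM in Wtap-HKO and 2.07 FPKM in Wtap-flox livers (log2 fold change 1.08). Nlrp6, a sensor of the NLR family, had 28.2, 25.0 and 26.5 FPKM in Wtap-HKO livers, against 63.0, 53.0 and 56.1 FPKM in Wtap-flox livers, and was the 1 gene of all 7 lists still called lower on the equal-sum scale (log2 fold change -1.10 on the deposited and -0.52 on the equal-sum scale, adjusted p = 0.000457 and 0.00607). Il18, a substrate of caspase 1, averaged 4.74 FPKM in Wtap-HKO and 8.55 FPKM in Wtap-flox livers (log2 fold change -0.83, adjusted p = 0.00386). Il1b, which encodes IL-1 beta, went the other way, at means of 1.72 FPKM in Wtap-HKO and 0.725 FPKM in Wtap-flox livers. Its groups overlapped and it was not called (log2 fold change 1.04, limma adjusted p = 0.065). The adaptor Pycard was rare, at 0.502, 0.342 and 0.634 FPKM in Wtap-HKO livers, against 0.243, 0.354 and 0.190 FPKM in Wtap-flox livers, and was not called (adjusted p = 0.142). Without Wtap-flox replicate 3, 8 genes of this list were called higher. Naip5 lost its call without Wtap-HKO replicate 1 or 3 or Wtap-flox replicate 1 or 2 (adjusted p of 0.0508 to 0.0773).

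Of the other caspases reported here, 0 of 3 tested were called by limma, 0 of them had an unadjusted p under 0.05, and 0 were called by limma-voom. On the equal-sum scale all 3 were called higher. Casp14 was at 0 in every library. Of the other gasdermins, 5 were at 0 in every library, and only Gsdme (0.837 FPKM in Wtap-HKO and 0.643 FPKM in Wtap-flox livers) was tested, without being called. Ninj1, which ruptures the membrane after gasdermin pores form, averaged 72.6 FPKM in Wtap-HKO and 72.8 FPKM in Wtap-flox livers (log2 fold change -0.01, adjusted p = 0.968). The apoptosome, caspase inhibitor and substrate list had 4 of 14 genes called higher and 1 lower (median log2 fold change 0.025), beside 19.5% and 20.7% of all genes tested. Apaf1, the scaffold that activates caspase 9, had 1.90, 1.58 and 2.19 FPKM in Wtap-HKO livers, against 0.520, 0.509 and 0.480 FPKM in Wtap-flox livers (log2 fold change 1.56 ± 0.17 SE, limma adjusted p = 0.000869). Birc5, a mitotic protein of the inhibitor of apoptosis family, was also higher (log2 fold change 1.41), and Dffa, the inhibitor of the apoptotic nuclease, lower (-0.90). Of 6 interferon-linked transcription factors, Irf8, a factor of the myeloid lineage, was higher (log2 fold change 0.97) and Irf2 and Stat2 were lower (-0.81 and -0.44), with Stat2 at 0.14 on the equal-sum scale.

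**Figure D5:**
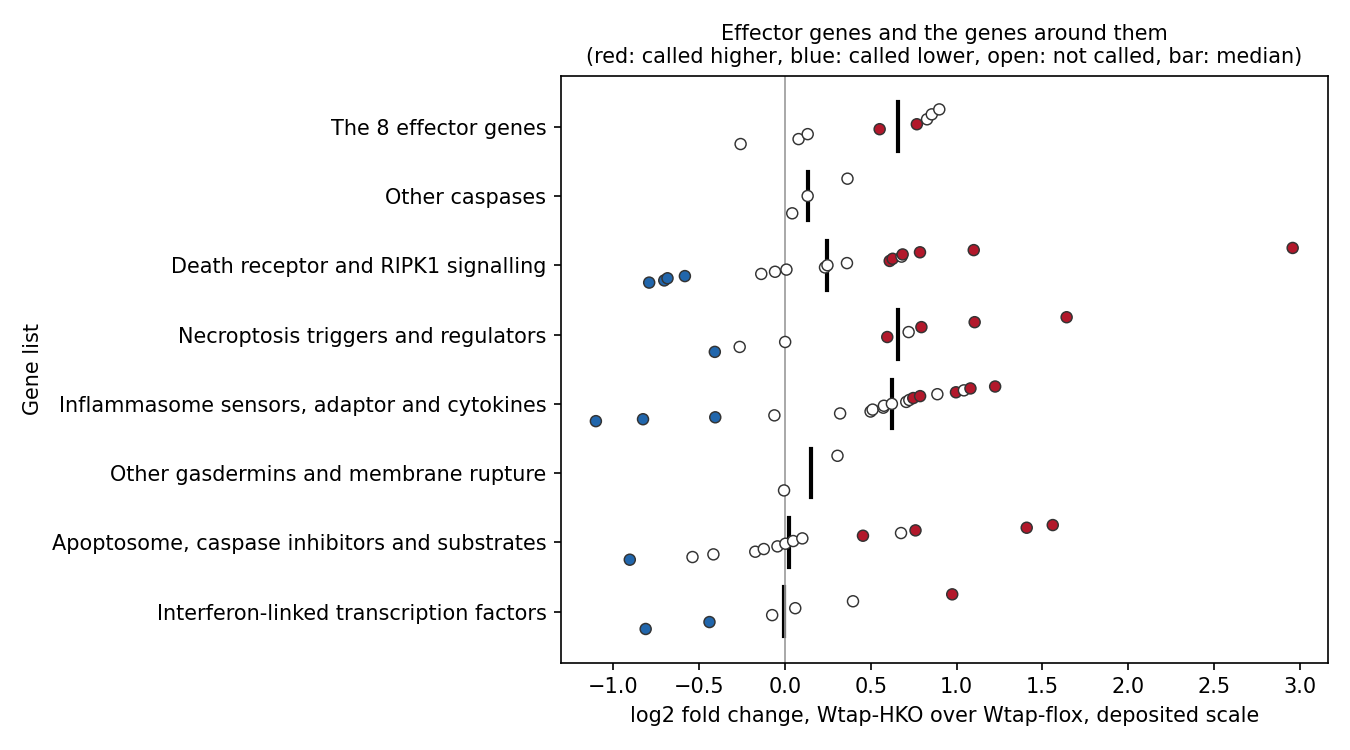
Log2 fold change, Wtap-HKO over Wtap-flox, on the deposited scale for the 8 effector genes and the tested genes of 7 lists around them. Red points were called higher, blue points lower and open points neither, and black bars are list medians. The effectors, the necroptosis genes and the inflammasome genes have medians of 0.66, 0.66 and 0.62, and Tnfrsf10b at 2.96 lies farthest to the right.

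Liver RNA mixes cell types, and in such bulk samples fewer cells of a type and less RNA per cell cannot be told apart. Macrophage and Kupffer cell markers summed to 508 to 632 FPKM in Wtap-HKO and 246 to 294 FPKM in Wtap-flox livers, with 11 of 13 called higher. Over all genes tested, 19.5% were called higher and 20.7% lower. Neutrophil markers summed to 23.7 to 34.1 FPKM in Wtap-HKO and 5.13 to 11.4 FPKM in Wtap-flox livers (4 of 4 tested called higher), and pan-leukocyte markers to 42.7 to 48.4 FPKM in Wtap-HKO and 26.0 to 31.4 FPKM in Wtap-flox livers (4 of 5). Called higher were also 2 of 4 dendritic cell markers tested, 1 of 10 T and NK cell markers, 3 of 7 endothelial markers and 0 of 3 B cell markers. Stellate cell markers were called higher in 4 of 6 and cholangiocyte markers in 3 of 5 tested. Hepatocyte markers were abundant in both groups but lower in Wtap-HKO in 7 of 8 genes, and summed to 28460 to 32214 FPKM in Wtap-HKO and 62555 to 70721 FPKM in Wtap-flox livers. On the equal-sum scale all 13 macrophage markers were called higher and 2 of the 8 hepatocyte markers lower.
Set against the macrophage sum within each library, 4 of the 8 effectors were lower in every Wtap-HKO than in every Wtap-flox library, as were 70.8% of all genes tested. Those were Casp8 (log2 difference -1.31), Ripk3 (-0.97), Casp6 (-0.92) and Gsdmd (-0.50), each at the smallest possible p (exact permutation test, p = 0.1, adjusted p = 0.3). Mlkl (-0.28), Casp1 (-0.23), Casp4 (-0.20) and Casp12 (-0.15) overlapped between groups (exact permutation p of 0.3 to 1). Against the pan-leukocyte sum, Casp8 (-0.98) and Casp6 (-0.59) separated the groups and the other 6 overlapped, whereas 58.6% of all genes tested were lower in every Wtap-HKO library. The part of these cells in the levels of the 8 genes was not tested.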

How the data were processed

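RNA from livers of 3 Wtap-HKO and 3 Wtap-flox mice was sequenced, with each mouse assigned by its label. Per the study, the 3 mice of a group were independent. The authors aligned paired-end reads to GRCm38.p6 with TopHat2, ran HTSeq 0.6.1 to count them and deposited the result as FPKM per gene. Not given in the sources used here are the annotation release, the strand setting and the tool that made the FPKM. Reads were rebuilt from the FPKM and gene lengths, and 100% of values were whole within 0.01 reads. Library totals are in the report.

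Genes averaging 0.2 FPKM or more were tested with limma 3.58.1 in R 4.3.3 (lmFit, eBayes with trend) on log2(FPKM + 0.2), with Benjamini-Hochberg adjustment. Fold changes on this scale understate changes of low genes. The script was tested on simulated data. Ratios within a library were compared by exact two-sided permutation tests. Alternatives were pseudocounts of 1 and 0.05 FPKM, a filter of 1 FPKM or none, equal-sum and median-of-ratios scaling, no trend, a replicate block, protein-coding genes alone, limma-voom on rebuilt reads and leaving out each library. The genes and lists were chosen with earlier results of these data known. Named were the 8 effectors, Wtap, the genes of the ratios, in each pathway list the 3 called genes of largest fold change averaging 1 FPKM or more, and the 3 genes most like the effectors. Fas, Tnf, Birc3, Xiap, Cyld, Ticam1, Cdc37, Naip5, Gbp2, Gbp3, Nek7, Il18, Il1b, Pycard, Gsdme and Ninj1 were added after their values were seen. A gene of the other caspases list is not reported here. Marker lists are given as sums, not by gene, apart from Cd5l and Cd14 in a figure caption, added after their values were seen. Promoter windows and their sequences came from RefSeq.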

Additional observations from a re-analysis of the deposited data

How the results depend on the processing

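Of 16 alternatives, Mlkl was called higher in 12 and Gsdmd in 10, Gsdmd also losing its call without the trend (adjusted p = 0.0514) and Tnfsf10 with no filter (just above 0.05). On the equal-sum scale, 8076 genes were called higher and 1002 lower, and list calls higher and lower were 6 and 0 for the effectors, 3 and 0 for other caspases, 13 and 0 for death receptors, 7 and 0 for necroptosis, 14 and 1 for inflammasomes, 2 and 0 for the gasdermin and membrane rupture list (Gsdme and Ninj1), 10 and 0 for the apoptosome list, and 4 and 0 for interferon-linked factors. That scaling turned Casp8 (0.32), Stat2 (0.14), Cdc37 (0.17), Nek7 (0.17) and Ninj1 (0.58) to positive fold changes. Effectors called higher numbered 1 without the trend, 4 among protein-coding genes and 4 with limma-voom, beside 19.4%, 26.3% and 19.8% of the genes tested in each. Among protein-coding genes 9 inflammasome genes were higher, and in the apoptosome list 2 were lower there, with limma-voom and with the replicate block. The replicate block also gave 2 necroptosis genes lower and 2 interferon-linked factors higher, ended the Tnf call (adjusted p = 0.0632) and called Ripk1 higher (0.0426). Under the block the effectors kept their calls, and 3057 genes were higher and 3508 lower in all. Same-numbered libraries had r of 0.0146, 0.0433 and 0.0642 between their deviations from the group means, against -0.0626 to 0.0224 for other pairs. Only Wtap-flox replicate 1 correlated best with another number, Wtap-HKO replicate 2. All these values are small, and whether equal numbers mark a pairing or a batch was not tested.

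Leaving out 1 library gave 0 to 3 effectors higher and 0 to 1 lower, 3 to 6 death receptor genes higher, 0 to 2 necroptosis genes lower, 4 to 8 inflammasome genes higher, 1 to 2 apoptosome genes lower, and 2143 to 2978 genes higher in all, the fewest without Wtap-HKO replicate 3. Ripk3 ranged from -0.094 to 0.26, negative without Wtap-HKO replicate 3 (-0.033) or Wtap-flox replicate 3 (-0.094). Ninj1 ranged from -0.084 to 0.038, positive without Wtap-HKO replicate 1 (0.028) or 3 (0.038) or Wtap-flox replicate 2 (0.033). Relative to macrophage markers, Casp4 ranged from -0.48 to 0.027 and Casp12 from -0.52 to 0.45, both highest without Wtap-HKO replicate 2, and Casp4 was at 0.013 with a pseudocount of 0.05 FPKM. The cause of these changes was not tested. Casp4, Ripk3 and Casp12 rested on few reads, 226, 176 and 361 in Wtap-HKO and 72, 108 and 99 in Wtap-flox libraries. With 3 libraries a group, estimates of 1.81-fold for Casp4 and 1.86-fold for Casp12 were not called. How far counting error or differences between mice limited these estimates was not tested.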

Other observations

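Over the 6 libraries, the genes whose log2(FPKM + 0.2) followed the mean standardized profile of the 8 effectors most closely, of 10314 searched, were Sh3pxd2b (r = 0.998), Fxyd5 (r = 0.998) and Cybb (r = 0.997). The libraries fall into 2 groups, so these values mainly rank genes by how they differed between genotypes. Cybb, the catalytic subunit of the phagocyte NADPH oxidase, had 13.7, 11.3 and 16.2 FPKM in Wtap-HKO livers, against 2.90, 3.09 and 4.60 FPKM in Wtap-flox livers (log2 fold change 1.91, limma adjusted p = 0.000819). Sh3pxd2b, an adaptor of podosomes, averaged 2.26 FPKM in Wtap-HKO and 0.163 FPKM in Wtap-flox livers (log2 fold change 2.74).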
